A study of Mus musculus with 13 samples.

Results

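The Kruppel-like factors (KLFs) are transcription factors that bind GC-rich and CACCC sequences through 3 zinc fingers at their C-terminus. Of this family, Klf2, Klf3, Klf4, Klf6, Klf7, Klf10, Klf11, Klf12 and Klf13 form the 9 members described here, taken by gene name from 17 KLF genes among the 56748 genes of the table. All 9 passed the filter on low counts in CD4+ T helper cells. Their levels were read in 13 RNA sequencing libraries of 5 groups.

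In T cells, KLF2 is known for keeping cells quiescent and for driving the receptors that guide them through lymphoid tissue, and KLF4 restrains cell division. By the way their N-terminal parts act, the members fall into activating factors (KLF2, KLF4, KLF6 and KLF7), repressors that recruit the corepressor CtBP (KLF3 and KLF12), and factors that recruit SIN3A (KLF10, KLF11 and KLF13). KLF10 and KLF11 were first known as genes induced by TGF-beta.

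The cells came from spleens of mice engrafted with Vk12653 myeloma cells on day 0, after depletion of NK1.1+ cells with 50 µg of antibody on days -2 and 5. Each mouse received 20 µg of 4-1BB agonist antibody or control IgG on days 10, 13 and 16 and was killed on day 18. All mice, controls included, carried a Thy1.1 reporter of Foxp3 together with either the Eomes-GFP reporter or the Eomes-TKO genotype, and the labels give neither the age nor the construction of Eomes-TKO. Sorted cells were positive for the T cell receptor and CD4 and negative for Thy1.1. The groups were 4-1BB-treated Eomes-TKO cells (2 libraries), GFP+ cells (3) and GFP− cells (3) of 4-1BB-treated Eomes-GFP mice, IgG-treated Eomes-TKO cells (3) and IgG-treated Eomes-GFP cells (2). Cells of the Eomes-TKO and IgG groups were not divided by GFP, so in comparisons between a GFP fraction and such a group the sort differs as well as the genotype or the treatment.

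Library totals ran from 6080975 to 10881146 estimated counts. Levels are CPM, that is, counts brought to one library size with TMM factors. Eomes had 570 to 706 CPM in GFP+ cells, 1.83 to 3.54 CPM in GFP− cells, 1.36 to 8.03 CPM in Eomes-TKO cells and 14 and 16.8 CPM in IgG-treated Eomes-GFP cells. The summed level of 6 T helper markers was 4240 to 4910 CPM in GFP+ libraries and 2630 to 3480 CPM in the other 10. Summed levels stayed at or under 5.21 CPM for B cell markers, 4.68 for plasma and myeloma markers, 12.3 for CD8 markers, 19.1 for NK markers, 21.1 for neutrophil markers, 7.31 for erythroid markers, 3.28 for platelet markers and 2.65 for Foxp3. The sum for endothelial and stromal markers, 74.6 to 94.4 CPM in GFP+ cells and 196 to 283 CPM elsewhere, came largely from Pecam1, which T cells also express. Col3a1 and Pf4 were at 0 in every library.

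Promoters were looked up for the members, and those of Klf2, Klf4 and Klf12 are shown because Klf4 and Klf12 differed most between GFP+ and GFP− cells and Klf2 least. RefSeq promoters on GRCm38.p6, from 250 bases before to 50 after the start, were matched for 8 of the 9 members. Capitals mark the KLF site CCNCNCCC and the MEF2 site on either strand, and overlapping matches run together. The Klf2 promoter lies at chr8:72318812-72319111 on the plus strand, the Klf4 promoter at chr4:55532426-55532725 on the minus strand and the Klf12 window at chr14:100149747-100150046 on the minus strand.
Klf2: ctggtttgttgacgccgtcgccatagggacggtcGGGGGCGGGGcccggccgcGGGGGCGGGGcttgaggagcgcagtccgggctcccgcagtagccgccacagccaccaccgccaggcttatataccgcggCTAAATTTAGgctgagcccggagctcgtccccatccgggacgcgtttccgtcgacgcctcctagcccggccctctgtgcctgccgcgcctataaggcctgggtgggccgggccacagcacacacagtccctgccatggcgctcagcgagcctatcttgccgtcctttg
Klf4: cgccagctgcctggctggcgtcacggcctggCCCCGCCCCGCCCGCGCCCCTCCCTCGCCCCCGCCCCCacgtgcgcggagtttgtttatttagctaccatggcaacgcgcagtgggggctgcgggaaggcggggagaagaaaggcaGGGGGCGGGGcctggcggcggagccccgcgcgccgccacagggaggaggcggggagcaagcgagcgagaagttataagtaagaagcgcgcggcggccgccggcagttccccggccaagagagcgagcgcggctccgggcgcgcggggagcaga
Klf12: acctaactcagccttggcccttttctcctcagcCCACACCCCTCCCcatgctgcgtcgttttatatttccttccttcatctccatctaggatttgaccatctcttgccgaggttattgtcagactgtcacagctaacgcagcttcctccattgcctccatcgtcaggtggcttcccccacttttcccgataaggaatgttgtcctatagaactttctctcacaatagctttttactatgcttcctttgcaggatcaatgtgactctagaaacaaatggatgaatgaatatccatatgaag
The KLF site is the kind of sequence that the family itself binds. It matched 4 times in the Klf2 promoter, 9 times in that of Klf4 and 2 times in the Klf12 window. The other 5 promoters held 10 matches for Klf3, 3 for Klf6, 8 for Klf7, 5 for Klf11 and 5 for Klf13. Of all 32544 promoters of the same length, 49.7% held at least 1 match and 8.23% held at least 5. The Klf12 window had 45.7% GC against 69.3% for Klf2 and 74.3% for Klf4, where the median of all promoters was 53%. Up to its annotated start the Klf12 window reads ctttgcag, letters that also mark the end of an intron. Whether this window is a promoter was not tested, so its GC and its matches may not be those of a promoter. A MEF2 site was matched in the Klf2 promoter, 118 bases before the start, in none of the other 7 and in 3.7% of all promoters. The FOXO site GTAAACA (3.66% of all promoters), the T-box site TCACACC (3.95%), the STAT site TTCNNNGAA (8.33%) and the cyclic AMP response element TGACGTCA (1.8%) had no match in the 8 windows. These matches describe letters in the windows and say nothing of binding.

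Most members differed between the fractions sorted by the Eomes reporter. In GFP+ against GFP− cells of the same treatment, 3 members were higher (Klf3, Klf10 and Klf12), 5 were lower (Klf4, Klf6, Klf7, Klf11 and Klf13) and Klf2 was not called. The call is an adjusted p under 0.05 in the edgeR quasi-likelihood test with Benjamini-Hochberg adjustment over 14059 genes, and every call below uses it. Among all genes tested, 37.1% were called in this comparison, 20.7% higher and 16.5% lower. The libraries of the 8 called members did not overlap between the fractions, and nor did those of 51.3% of all genes. The median size of the log2 fold change was 1.30 over the 9 members and 0.41 over all genes. Among the members, 3 of the 4 activating factors were lower and 0 higher. Both CtBP-recruiting members were higher, and the SIN3A-recruiting members split into 1 higher and 2 lower. Klf8, a CtBP-recruiting factor outside the 9 members, was not called (0.82 ± 0.36, adjusted p = 0.0884). Each class holds few genes, chosen with earlier results known, so these counts show no pattern by mechanism.

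**Figure D1:**
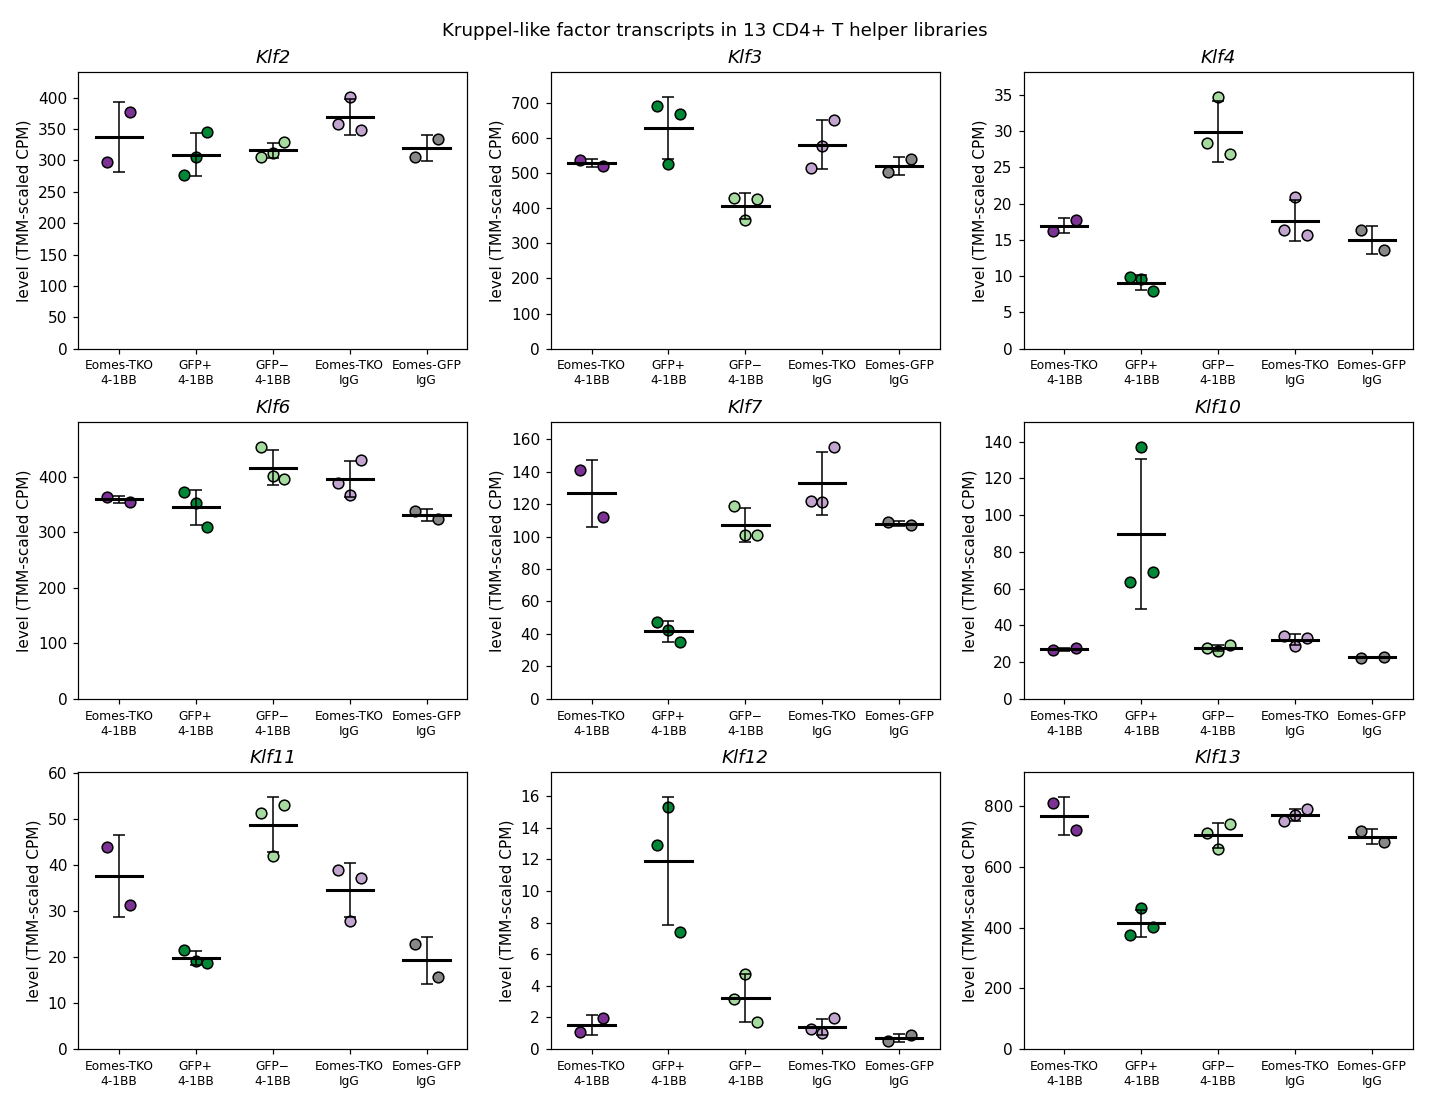
Level of each member in each library as TMM-scaled CPM (y axis, from 0), by group (x axis). Points are libraries, thick lines are group means and error bars are ± 1 SD. GFP+ cells had the lowest Klf4, Klf7 and Klf13 and the highest Klf10 and Klf12, while Klf2 libraries lay between 276 and 401 CPM throughout.

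Among the activating factors, Klf2 varied least. It had 298 and 377 CPM in 4-1BB-treated Eomes-TKO cells, 276, 306 and 345 CPM in GFP+ cells, 306, 312 and 330 CPM in GFP− cells, 358, 401 and 348 CPM in IgG-treated Eomes-TKO cells, and 305 and 334 CPM in IgG-treated Eomes-GFP cells. In the order of group means, from 369 CPM in IgG-treated Eomes-TKO to 309 CPM in GFP+ cells, every neighbouring pair overlapped. Groups further apart did not all overlap, as the IgG-treated Eomes-TKO libraries lay above every GFP+, GFP− and IgG-treated Eomes-GFP library. The log2 fold change in GFP+ over GFP− cells was −0.03 ± 0.11 (SE, adjusted p = 0.852), with a 95% interval of −0.27 to 0.20. That interval allows folds from 0.83 to 1.15. Within pairs of fractions sharing a library prefix, GFP+ minus GFP− was −0.15, −0.03 and 0.06. In the 7 comparisons the log2 fold changes of Klf2 lay between −0.13 and 0.21, with 0 calls by edgeR, DESeq2 or limma-voom and 0 unadjusted p under 0.05.

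Klf4, a close relative of Klf2, was the most reduced member in GFP+ cells. It had 9.84, 9.56 and 7.95 CPM in GFP+ cells against 28.3, 34.7 and 26.8 CPM in GFP− cells. The 4-1BB-treated Eomes-TKO libraries held 16.2 and 17.7 CPM, the IgG-treated Eomes-TKO libraries 16.4, 20.9 and 15.7 CPM, and the IgG-treated Eomes-GFP libraries 16.4 and 13.6 CPM. The GFP− libraries were the highest and the GFP+ libraries the lowest, with the 7 undivided libraries between them and overlapping each other. The mean was 9.12 ± 1.02 CPM in GFP+ cells and 29.9 ± 4.2 CPM in GFP− cells (SD, n = 3 each), a log2 fold change of −1.72 ± 0.18 (SE, adjusted p = 3.02e-06) that was negative in 3 of 3 prefix pairs (−1.50, −1.84 and −1.73). In RNA from a bulk sort, fewer cells expressing a gene and less RNA per cell cannot be told apart. Myeloid cells also express Klf4. The sum of 8 myeloid markers was 35.6 to 50.3 CPM in GFP+ cells and 20.5 to 44 CPM in GFP− cells, and of the 5 tested 1 (Itgam) was higher and 0 lower. It was 18.6 and 34.9 CPM in 4-1BB-treated Eomes-TKO, 11.2 to 15.2 CPM in IgG-treated Eomes-TKO and 8.71 and 15.1 CPM in IgG-treated Eomes-GFP cells. Both IgG groups thus had lower Klf4 and lower myeloid sums than GFP− cells. GFP+ cells had the lowest Klf4, with myeloid sums of 35.6 to 50.3 CPM. The part of myeloid cells in the Klf4 levels was not tested.

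Klf6, an activator that is often induced by stimuli, changed little. It had 372, 352 and 310 CPM in GFP+ cells against 453, 401 and 395 CPM in GFP− cells. The other libraries held 364 and 355 CPM in 4-1BB-treated Eomes-TKO, 389, 367 and 430 CPM in IgG-treated Eomes-TKO, and 339 and 324 CPM in IgG-treated Eomes-GFP cells. The GFP− group was again the highest, though it overlapped IgG-treated Eomes-TKO cells. GFP+ over GFP− cells gave a log2 fold change of −0.27 ± 0.10 (SE, adjusted p = 0.0394), negative in 3 of 3 prefix pairs. This call was close to the threshold. It was lost without any 1 of GFP− replicate 1, 2 or 3, GFP+ replicate 3, IgG-treated Eomes-GFP replicate 2 or IgG-treated Eomes-TKO replicate 1 (adjusted p from 0.0508 to 0.163) and with no filter on low counts (adjusted p = 0.0615).

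Klf7, the closest relative of Klf6, was low in GFP+ cells alone among the 5 groups. It had 47.3, 42.2 and 35 CPM in GFP+ cells against 119, 101 and 101 CPM in GFP− cells. Levels were 141 and 112 CPM in 4-1BB-treated Eomes-TKO, 122, 121 and 155 CPM in IgG-treated Eomes-TKO, and 109 and 107 CPM in IgG-treated Eomes-GFP libraries. Every library outside the GFP+ group was thus above 100 CPM. Between the fractions, GFP+ over GFP−, the log2 fold change was −1.37 ± 0.14 (SE, adjusted p = 2.62e-06), with −1.33, −1.25 and −1.52 in the 3 prefix pairs.

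Of the CtBP-recruiting repressors, Klf3 is known for opposing KLF2 at shared target genes in B cells. It had 690, 527 and 667 CPM in GFP+ cells against 429, 365 and 426 CPM in GFP− cells. It had 536 and 521 CPM in 4-1BB-treated Eomes-TKO, 513, 578 and 651 CPM in IgG-treated Eomes-TKO, and 502 and 539 CPM in IgG-treated Eomes-GFP cells. GFP− cells stood lowest, below every library of the other 4 groups, which overlapped as neighbours in the order of means. For GFP+ over GFP− cells the log2 fold change was 0.63 ± 0.12 (SE, adjusted p = 0.000808), positive in 3 of 3 prefix pairs. In GENCODE M21, Klf3 overlaps Gm20033 on the opposite strand (1.34 to 2.65 CPM) and C230096K16Rik on the same strand (11.7 to 36.4 CPM), genes at levels far under that of Klf3, and whether counting used strand is not given in the sources used here. Of the annotated genes overlapping Klf7, Klf12 and Klf13, those looked up that the table holds were at 0 in every library. Mir6899, a microRNA gene on the same strand as Klf7, was not looked up.

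Klf12, the other CtBP-recruiting repressor, had the fewest counts outside the GFP+ group and the widest relative range. It had 12.9, 15.3 and 7.41 CPM in GFP+ cells against 3.17, 4.75 and 1.72 CPM in GFP− cells. It had 1.09 and 1.98 CPM in 4-1BB-treated Eomes-TKO, 1.25, 0.986 and 1.99 CPM in IgG-treated Eomes-TKO, and 0.509 and 0.881 CPM in IgG-treated Eomes-GFP libraries. The GFP+ libraries, from 69 to 117 counts each, lay above all others, and the 2 IgG-treated Eomes-GFP libraries held 4 and 9 counts. The mean was 11.9 ± 4.05 CPM in the GFP+ and 3.21 ± 1.52 CPM in the GFP− fraction (SD, n = 3 each), a log2 fold change of 1.90 ± 0.40 (SE, adjusted p = 0.00177), with 1.95, 1.64 and 1.97 in the prefix pairs. Both fractions of pair 3 were the lowest of their groups. The summed level of 5 proliferation genes (Mki67, Top2a, Cdk1, Ccnb1 and Birc5), all 5 higher in GFP+ over GFP− cells, was also highest in GFP+ cells. It was 852 to 1140 CPM in GFP+ cells and 276 to 366 CPM in GFP− cells, with 122 and 320 CPM in 4-1BB-treated Eomes-TKO, 52.9 to 78.1 CPM in IgG-treated Eomes-TKO and 64.9 and 124 CPM in IgG-treated Eomes-GFP cells. Its part in the Klf12 difference was not tested.

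Of the SIN3A-recruiting factors, Klf10, a TGF-beta-inducible gene, was higher in GFP+ cells. It had 63.8, 137 and 68.8 CPM in GFP+ cells against 27.9, 25.8 and 29.5 CPM in GFP− cells. It had 26.4 and 27.6 CPM in 4-1BB-treated Eomes-TKO, 34.3, 28.7 and 33.3 CPM in IgG-treated Eomes-TKO, and 22.5 and 22.9 CPM in IgG-treated Eomes-GFP cells. All 10 libraries outside the GFP+ group lay between 22.5 and 34.3 CPM, and GFP+ replicate 2 stood above the other GFP+ libraries. The log2 fold change in GFP+ over GFP− cells was 1.69 ± 0.23 (SE, adjusted p = 8.88e-05), and 1.22 (adjusted p = 4.03e-06) without GFP+ replicate 2. The prefix pairs gave 1.18, 2.40 and 1.21.

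Klf11, its closest relative, went the other way between the fractions. It had 21.6, 19.1 and 18.8 CPM in GFP+ cells against 51.3, 41.9 and 53 CPM in GFP− cells. It had 43.9 and 31.3 CPM in 4-1BB-treated Eomes-TKO, 38.9, 27.9 and 37.1 CPM in IgG-treated Eomes-TKO, and 22.9 and 15.7 CPM in IgG-treated Eomes-GFP cells. The GFP+ libraries overlapped the IgG-treated Eomes-GFP libraries, and both groups lay under all others, while GFP− cells, the highest, overlapped 4-1BB-treated Eomes-TKO cells. On the log2 scale, GFP+ over GFP− cells was at −1.30 ± 0.18 (SE, adjusted p = 6.12e-05), with −1.24, −1.12 and −1.48 in the prefix pairs.

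Klf13, which is known for late activation of the chemokine gene Ccl5 in T cells, was lower in GFP+ cells than in every other group. It had 377, 464 and 401 CPM in GFP+ cells against 712, 660 and 741 CPM in GFP− cells. It had 811 and 723 CPM in 4-1BB-treated Eomes-TKO, 752, 770 and 792 CPM in IgG-treated Eomes-TKO, and 717 and 683 CPM in IgG-treated Eomes-GFP libraries. The 10 libraries outside the GFP+ group were all at or above 660 CPM. The log2 fold change in GFP+ over GFP− cells was −0.77 ± 0.10 (SE, adjusted p = 2.29e-05), with −0.92, −0.51 and −0.89 in the prefix pairs. Against a threshold of 1.5-fold in place of 0, the calls of Klf13 (adjusted p = 0.0658), Klf3 (0.527) and Klf6 (1) were lost, and those of the other 5 members held.

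When 4-1BB-treated Eomes-TKO cells were set against GFP+ cells, 6 members were called. Klf4, Klf7, Klf11 and Klf13 were higher in Eomes-TKO cells, and Klf10 and Klf12 were lower. Of all genes, 34.6% were called, 15.7% higher and 18.8% lower, and the 4859 genes called became 3060 without 4-1BB-treated Eomes-TKO replicate 1. The log2 fold changes were 0.90 ± 0.20 for Klf4 (adjusted p = 0.00235), 1.61 ± 0.15 for Klf7 (1.38e-06), 0.92 ± 0.20 for Klf11 (0.00263) and 0.89 ± 0.11 for Klf13 (1.58e-05). Klf10 differed by −1.73 ± 0.27 (adjusted p = 0.000289) and Klf12 by −2.89 ± 0.51 (adjusted p = 0.000471). In each of the 6, the libraries of the groups did not overlap, as in 53% of all genes. Klf3 differed by −0.25 ± 0.13 (adjusted p = 0.172), Klf6 by 0.06 ± 0.11 (0.702) and Klf2 by 0.13 ± 0.12 (0.46), all with overlapping libraries. Against a threshold of 1.5-fold, Klf4 (adjusted p = 0.0993) and Klf11 (0.0974) were not called. Proliferation genes and cell markers also differed here. All 5 proliferation genes and 5 of 6 T helper markers were called lower in Eomes-TKO cells, as were Itgam (myeloid) and Klrd1 (NK). Called higher were Klrb1c (NK), Cd8b1 (CD8), Cd79a (B cell), Jchain (plasma cell), Foxp3 and Pecam1. The part of proliferation and of other cells in the member differences was not tested.

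**Figure D2:**
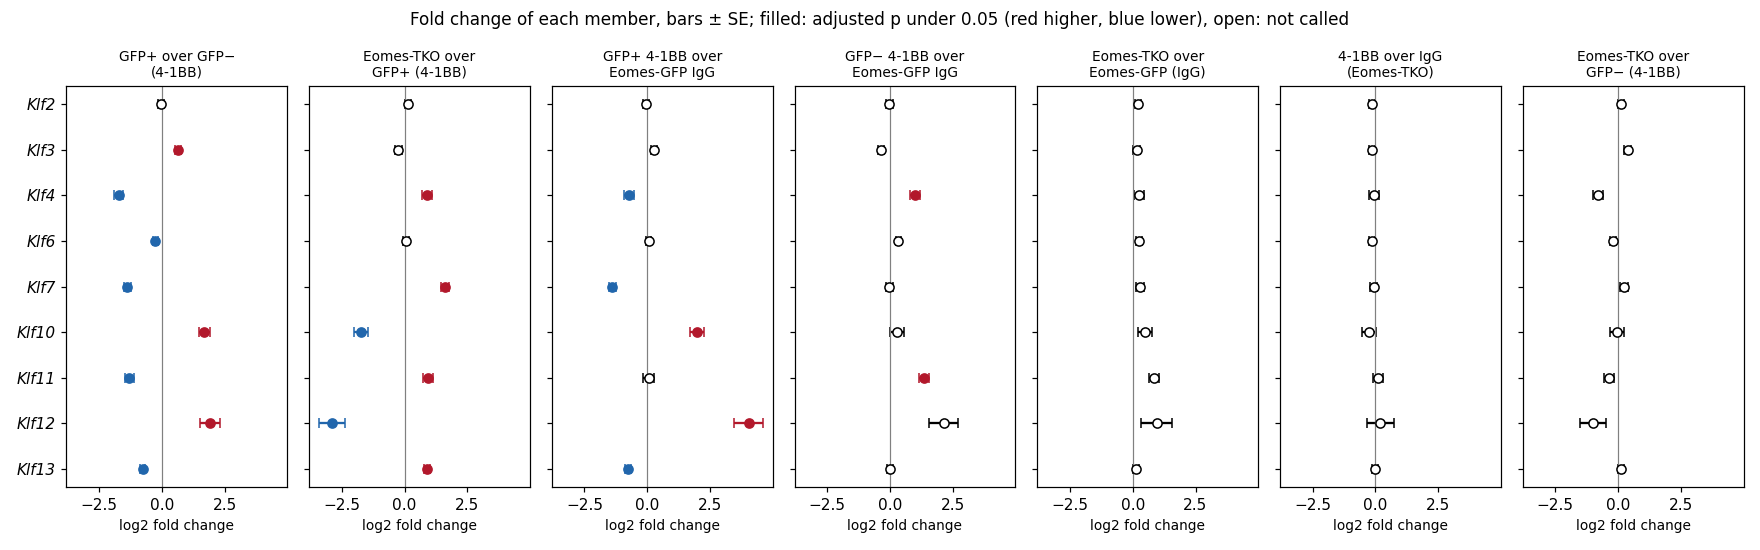
Log2 fold change (x axis, the same in all panels) of each member (y axis) in the 7 comparisons, each named above its panel with its first group on top of the ratio. Bars are ± SE, filled points have an adjusted p under 0.05 (red higher, blue lower) and open points were not called. Filled points stand in the 3 panels that involve GFP+ cells, and in the panel of GFP− over IgG-treated Eomes-GFP cells for Klf4 and Klf11.

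GFP+ cells of treated mice differed from undivided cells of IgG-treated Eomes-GFP mice in 5 members. Klf10 and Klf12 were higher and Klf4, Klf7 and Klf13 were lower in GFP+ cells, where 34.2% of all genes were called, 18.8% higher and 15.4% lower (4809 genes, and 3195 without IgG-treated Eomes-GFP replicate 1). The log2 fold change was 1.98 ± 0.28 for Klf10 (adjusted p = 9.6e-05) and 4.03 ± 0.56 for Klf12 (5.63e-05), where the Klf12 value rests on 4 and 9 counts in the IgG-treated libraries. It was −1.39 ± 0.15 for Klf7 (adjusted p = 5.35e-06), −0.76 ± 0.11 for Klf13 (6.45e-05) and −0.72 ± 0.20 for Klf4 (0.0104). The Klf4 call was lost without IgG-treated Eomes-GFP replicate 1 (adjusted p = 0.0931). Klf4 (adjusted p = 0.363) and Klf13 (0.0999) were not called against a threshold of 1.5-fold. Among markers of other cells, 2 of the 5 myeloid and 3 of the 3 neutrophil markers tested were also called higher in GFP+ cells. So were 1 of the 2 CD8 markers tested (Cd8a) and 1 of the 2 NK markers tested (Klrd1). The NK marker Klrb1c and the endothelial marker Pecam1 were called lower. What part other cells had in these differences was not tested. Klf11, at 0.05 ± 0.21 (95% interval −0.40 to 0.49), was not called although it was lower in GFP+ than in GFP− cells. Klf3, at 0.27 ± 0.13 (adjusted p = 0.135), was called without GFP+ replicate 2 (0.0352).

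GFP− cells of treated mice differed from the same IgG-treated cells in 2 members. Klf4 was higher by 1.00 ± 0.19 on the log2 scale (adjusted p = 0.0291) and Klf11 by 1.35 ± 0.21 (adjusted p = 0.0141). Few genes were called here, 0.761% of all, 0.654% higher and 0.107% lower. These 107 genes became 1 to 21 without any 1 library of the 2 groups, and 202 and 197 without 4-1BB-treated Eomes-TKO replicate 1 and 2. The libraries did not overlap for 6 members (Klf3, Klf4, Klf6, Klf10, Klf11 and Klf12) and for 30% of all genes. Markers of other cells and of proliferation also differed here. The NK marker Klrb1c was called lower (−2.22 on the log2 scale, adjusted p = 0.0213), and 0 of the 2 NK markers tested were higher. Among 5 proliferation genes, 4 were called higher and 0 lower. Of the 5 myeloid markers tested, 1 was called higher and 0 lower, namely Lyz2, at 9 ± 4.23 CPM in GFP− cells (n = 3) and 0.352 ± 0.221 CPM in IgG-treated Eomes-GFP cells (SD, n = 2; adjusted p = 0.0299 in edgeR). The summed myeloid markers were at 20.5 to 44 CPM in GFP− cells and 8.71 and 15.1 CPM in IgG-treated cells. The sum of 4 neutrophil markers was 3.66 to 10.9 CPM in GFP− cells and 0 in both IgG-treated libraries, with 0 of the 3 tested called. The part of other cells and of proliferation in the Klf4 and Klf11 differences was not tested. Both calls rested on few libraries: Klf4 was not called without any 1 of the 5 libraries of these groups (adjusted p from 0.0594 to 0.414). Klf11 was not called without GFP− replicate 1 (0.0567) or 3 (0.054) or IgG-treated Eomes-GFP replicate 2 (0.233). Neither passed a threshold of 1.5-fold (Klf4 at 0.534, Klf11 at 0.147). Klf12, at 2.14 ± 0.57 (adjusted p = 0.121), was called with no filter on low counts (0.0025), in DESeq2 (0.0312) and with the label number as a block (0.0446). Over the whole table these settings called 521, 288 and 266 genes. Klf3 (−0.36 ± 0.13, adjusted p = 0.362) and Klf6 (0.33 ± 0.11, adjusted p = 0.281) were not called. These comparisons share their IgG-treated libraries with each other and their GFP+ or GFP− libraries with the comparison of the fractions.

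The 3 comparisons without GFP+ cells that involve Eomes-TKO called 0 members by edgeR. In IgG-treated Eomes-TKO over IgG-treated Eomes-GFP cells, 0.0142% of all genes were called (0% higher and 0.0142% lower). These 2 genes became 0 without IgG-treated Eomes-GFP replicate 2 or IgG-treated Eomes-TKO replicate 1 or 2, 1 without GFP− replicate 3, and 5 without IgG-treated Eomes-TKO replicate 3. Across the table, 430 genes and 2 members had an unadjusted p under 0.05. All 9 members had a positive log2 fold change there, with a median of 0.25 against 0 over all genes, and the adjusted p was 1 for each. Klf11 had the smallest unadjusted p, at 0.85 ± 0.21 (unadjusted p = 0.00102, 95% interval 0.41 to 1.29), and was called with no filter on low counts (adjusted p = 0.00285). That setting called 112 genes over the whole table. Klf6 followed at 0.25 ± 0.11 (unadjusted p = 0.036). DESeq2 and limma-voom called 0 members in this comparison.

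In 4-1BB-treated over IgG-treated Eomes-TKO cells, 0.0427% of all genes were called (0.0427% higher and 0% lower). These 6 genes became 83 without 4-1BB-treated Eomes-TKO replicate 1, 14 without GFP+ replicate 3, and 0 without 4-1BB-treated or IgG-treated Eomes-TKO replicate 2. They became 1 or 2 without IgG-treated Eomes-TKO replicate 1 or any 1 GFP− library. The members lay between −0.25 for Klf10 and 0.19 for Klf12, with a median of −0.07 and an adjusted p of 1 each. The number of members with an unadjusted p under 0.05 was 0, against 506 of all genes, and DESeq2 and limma-voom called 0 members. For Klf2 the 95% interval ran from −0.39 to 0.14, and for Klf12, at few counts, from −0.96 to 1.34.

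In 4-1BB-treated Eomes-TKO over GFP− cells, 0.0427% of all genes were called (0.00711% higher and 0.0356% lower). These 6 genes became 15 without 4-1BB-treated Eomes-TKO replicate 2, and 0 to 3 without any 1 GFP− library, either IgG-treated Eomes-GFP library or GFP+ replicate 3. Across the table, 980 genes and 2 members had an unadjusted p under 0.05. Klf4 was at −0.81 ± 0.19 (adjusted p = 0.3, 95% interval −1.22 to −0.41). It was called with no filter on low counts (adjusted p = 0.0402) and by DESeq2 (0.0493), the 1 member that DESeq2 called here, while limma-voom called 0. Over the whole table no filter called 220 genes and DESeq2 45. Klf3 was at 0.38 ± 0.13 (adjusted p = 0.583).

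Most genes of a list tied to KLF2 were lower in GFP+ cells, while Klf2 itself was not called. KLF2 is known to drive the egress receptor gene S1pr1, and is linked to quiescence through Cdkn1a and Myc. Of 9 trafficking and quiescence genes, 2 were higher and 6 lower in GFP+ over GFP− cells, with a median log2 fold change of −0.51 against 0.02 over all genes. Of all genes, 20.7% were called higher and 16.5% lower. The list joins genes of unlike roles, among them a cell cycle inhibitor and a driver of growth. Its counts and median are therefore no measure of KLF2 activity. Il7r, the interleukin-7 receptor gene, averaged 47.6 ± 21.1 CPM in the GFP+ fraction and 447 ± 31.3 CPM in the GFP− fraction (−3.23 ± 0.28 on the log2 scale, adjusted p = 3.74e-06). Ccr7, a lymph node homing receptor gene, averaged 34.1 ± 1.11 CPM in the GFP+ and 294 ± 21 CPM in the GFP− fraction (−3.11 ± 0.10, adjusted p = 7.1e-11). Myc, which drives cell growth, averaged 23.7 ± 2.22 CPM in the GFP+ and 88.9 ± 9.71 CPM in the GFP− fraction (−1.91 ± 0.23, adjusted p = 3.16e-05). Cdkn1a, a cell cycle inhibitor gene that KLF factors are known to induce, was higher, at 16 ± 12.1 CPM in the GFP+ and 1.49 ± 0.328 CPM in the GFP− fraction (3.43 ± 0.54, adjusted p = 0.000196). The homing and egress genes S1pr1 (−0.51) and Itgb7 (−0.74) and the cell cycle inhibitor gene Cdkn1b (−0.41) were also lower, and S1pr4 (0.53), another receptor for the egress signal, was higher. In 4-1BB-treated Eomes-TKO over GFP+ cells 6 of the 9 were higher and 2 lower, and in GFP+ over IgG-treated Eomes-GFP cells 1 was higher and 6 lower. In each of the other 4 comparisons edgeR, DESeq2 and limma-voom called 0, with at most 2 genes at an unadjusted p under 0.05.

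**Figure D3:**
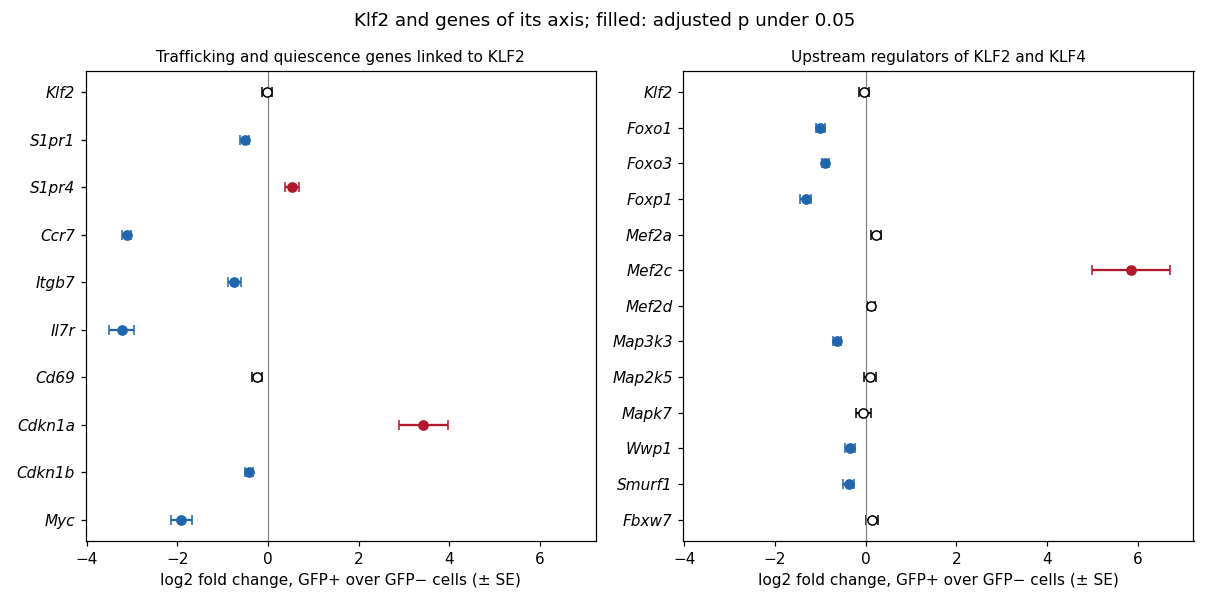
Log2 fold change in GFP+ over GFP− cells (x axis, ± SE) of Klf2 (top row of both panels), of 9 trafficking and quiescence genes linked to KLF2 (left) and of 12 upstream regulators (right). Filled points have an adjusted p under 0.05, red higher and blue lower. Klf2 lies at −0.03, between Il7r at −3.23 and Cdkn1a at 3.43, and the Mef2c point is set against GFP− libraries with at most 3 counts, so that its size is not a measured fold.

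Upstream of KLF2 and KLF4, FOXO1 is a known activator of Klf2 in T cells, and the kinase chain of MEKK3, MEK5 and ERK5 acts through MEF2 factors, whose site was matched in the Klf2 promoter shown above. Of 12 such genes, 1 was higher and 6 were lower in GFP+ over GFP− cells, with a median of −0.20. Of all genes, 20.7% were higher and 16.5% lower there. Foxo1 averaged 300 ± 10.2 CPM in the GFP+ fraction and 601 ± 45.3 CPM in the GFP− fraction (−1.0 ± 0.09 on the log2 scale, adjusted p = 8.94e-07). Foxp1, a forkhead factor that opposes FOXO1, averaged 221 ± 31.6 CPM in the GFP+ and 552 ± 54 CPM in the GFP− fraction (−1.32 ± 0.12, adjusted p = 9.05e-07). Foxo3 was at −0.89 ± 0.08 (adjusted p = 7.46e-07), and Map3k3, which encodes MEKK3, Wwp1 and Smurf1 were also lower. The rest of that chain was not called, with Map2k5 for MEK5 at 0.10, Mapk7 for ERK5 at −0.05, Mef2a at 0.22 and Mef2d at 0.12. The list joins genes of unlike roles, among them Foxo1 and a factor that opposes it. Its counts and median are therefore no measure of upstream activity. Mef2c averaged 7.3 ± 1.37 CPM in GFP+ cells and 0.122 ± 0.211 CPM in GFP− cells, where no library had more than 3 counts (adjusted p = 0.000175). B cells, a known source of Mef2c, left marker sums of 0.393 to 1.66 CPM in the GFP+ and 1.59 to 2.71 CPM in the GFP− fraction. The myeloid marker Itgam was higher in GFP+ cells, at 17.2 ± 3.39 CPM in the GFP+ and 6.19 ± 1.42 CPM in the GFP− fraction (1.46 ± 0.24, adjusted p = 0.000255), and the part of other cells in the Mef2c difference was not tested. The 12 genes gave 5 higher and 1 lower in 4-1BB-treated Eomes-TKO over GFP+ cells, and 1 higher and 6 lower in GFP+ over IgG-treated Eomes-GFP cells. In each of the other 4 comparisons edgeR called 0, with at most 1 gene at an unadjusted p under 0.05, and DESeq2 called 1 for 4-1BB over IgG in Eomes-TKO.

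The list of KLF cofactor genes joins genes for corepressors with genes for acetyltransferases. Of its 11 genes, 10 were tested, and 2 were higher and 3 lower in GFP+ over GFP− cells, with a median of 0.01. These counts lie near the shares of all genes called, 20.7% higher and 16.5% lower. Sap30, a subunit of the SIN3 complex, was higher at 1.60 ± 0.44 (5.6 ± 0.989 CPM in the GFP+ and 1.86 ± 0.951 CPM in the GFP− fraction, adjusted p = 0.00974). The deacetylase genes split, with Hdac1 at 0.45 ± 0.12 (adjusted p = 0.00999) and Hdac2 at −0.43 ± 0.13 (0.0155). Kat2b, a histone acetyltransferase gene, was lower at −0.71 ± 0.11 (adjusted p = 0.000192). Neither Ctbp1 nor Sin3a was called, at 0.15 and −0.07. In 4-1BB-treated Eomes-TKO over GFP+ cells 2 were higher (Hdac2 and Kat2b) and 1 lower (Hdac1), and in GFP+ over IgG-treated Eomes-GFP cells 2 were higher (Sap30 and Hdac1) and 2 lower (Hdac2 and Kat2b). In each of the other 4, all of the 3 tools called 0, with at most 1 gene at an unadjusted p under 0.05.

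In the TGF-beta pathway, from which Klf10 and Klf11 take their history, 1 of 8 genes was higher and 4 were lower in GFP+ over GFP− cells, with a median of −0.26. The shares of all genes were 20.7% higher and 16.5% lower. Smad7, the inhibitory SMAD gene induced by the pathway itself, averaged 143 ± 13.8 CPM in the GFP+ and 311 ± 40.8 CPM in the GFP− fraction (−1.12 ± 0.11, adjusted p = 1.75e-06). Skil, another feedback inhibitor that the pathway induces, was at −0.57 ± 0.10 (adjusted p = 0.000561), Tgfbr1, a receptor, at −0.43 ± 0.12 (0.0112), and Smad3, a signal transducer, at 0.57 ± 0.12 (0.00164). Klf11 thus had the sign of Smad7 and Skil, and Klf10 the opposite sign. In 4-1BB-treated Eomes-TKO over GFP+ cells 4 were higher (Tgfbr1, Smad4, Smad7 and Skil) and 1 lower (Smad3), and in GFP+ over IgG-treated Eomes-GFP cells 1 was higher (Smad3) and 3 lower (Tgfbr1, Smad4 and Smad7). Elsewhere the 3 tools called 0 in each comparison, with at most 2 genes at an unadjusted p under 0.05.

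Klf4, Klf6 and Klf10 respond quickly to stimuli in many cells, and immediate early genes also report handling during sorting. Of 19 tested immediate early genes, 2 were higher and 11 lower in GFP+ over GFP− cells, with a median of −0.54. The shares of all genes were 20.7% higher and 16.5% lower. Jun was at −1.78 ± 0.17 (adjusted p = 2.72e-06) and Junb at −1.73 ± 0.17 (2.04e-06), both AP-1 subunits, while Ier3, at 40.2 ± 10.4 CPM in the GFP+ and 0.76 ± 0.504 CPM in the GFP− fraction, was higher by 5.75 ± 0.44 (1.71e-07) and Egr2 by 1.39 ± 0.25 (0.000748). The summed level of 20 such genes was 2960 to 3230 CPM in the GFP+ and 5770 to 6070 CPM in the GFP− fraction. It was 4090 and 4680 CPM in 4-1BB-treated Eomes-TKO, 3540 to 4530 CPM in IgG-treated Eomes-TKO and 4340 and 4530 CPM in IgG-treated Eomes-GFP cells. The sum was thus lowest in the group with the lowest Klf4 and highest in the group with the highest Klf4, and its part in the Klf4 difference was not tested. In GFP− over IgG-treated Eomes-GFP cells, where Klf4 and Klf11 were called, 3 immediate early genes were higher, Junb (1.00, adjusted p = 0.0282), Nr4a1 (0.86, 0.00588) and Dusp1 (0.59, 0.0417), and 0 were lower. The counts were 7 higher and 3 lower in 4-1BB-treated Eomes-TKO over GFP+ cells, and 2 higher and 8 lower in GFP+ over IgG-treated Eomes-GFP cells. In the other 3 comparisons edgeR called 0, with 8 genes at an unadjusted p under 0.05 in 4-1BB-treated Eomes-TKO over GFP− cells, where DESeq2 called 2, and at most 1 in the others.

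**Figure D4:**
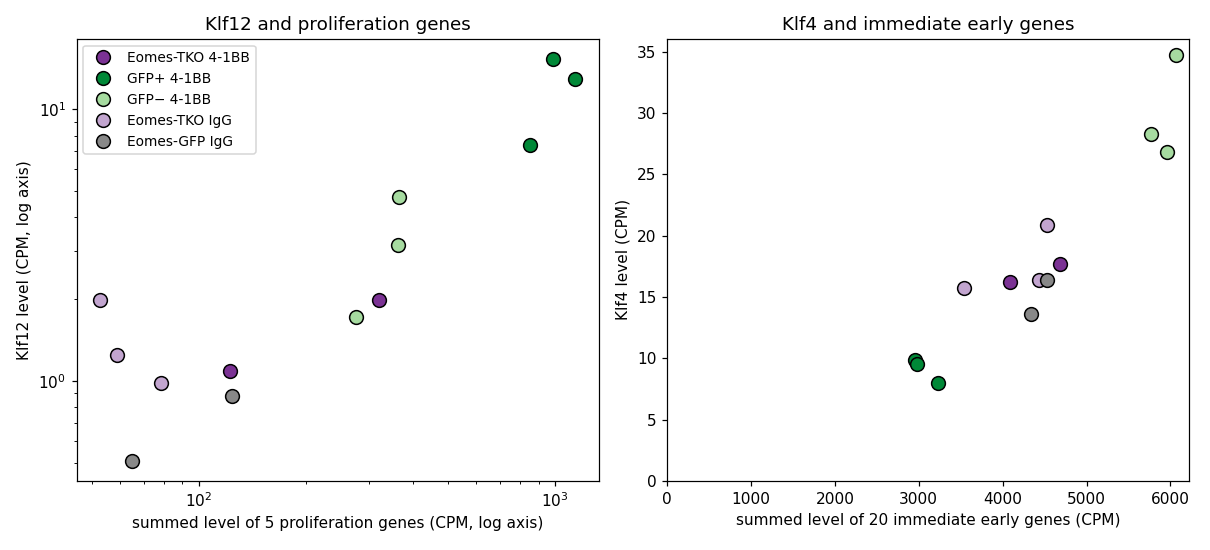
Left, Klf12 level against the summed level of 5 proliferation genes in each of the 13 libraries (CPM, both axes logarithmic). Right, Klf4 level against the summed level of 20 immediate early genes (CPM, both axes from 0). Each point is a library coloured by group. GFP+ libraries hold the highest Klf12 and proliferation sums, and GFP− libraries the highest Klf4 and immediate early sums.

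Most of the remaining KLF genes and the related SP genes were not called. Of 17 in the table outside the 9 members, 8 passed the filter, and in GFP+ over GFP− cells 0 were higher and 1 was lower, with a median of 0. The shares of all genes were 20.7% higher and 16.5% lower. Sp6 averaged 0.767 ± 0.302 CPM in the GFP+ and 7.4 ± 2.21 CPM in the GFP− fraction (−3.28 ± 0.40, adjusted p = 1.63e-05). It was also lower in GFP+ than in IgG-treated Eomes-GFP cells (−3.71, adjusted p = 8e-06), where Klf8, a CtBP-recruiting relative of Klf3 and Klf12, was higher (1.19, adjusted p = 0.0405). In 4-1BB-treated Eomes-TKO over GFP+ cells Sp6 was higher (3.39, adjusted p = 2.43e-05) and Klf16 lower (−0.53, adjusted p = 0.0297). In each of the other 4 comparisons the 3 tools called 0, with at most 1 gene at an unadjusted p under 0.05.

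Genes whose levels followed each member most closely across the libraries were ranked by Pearson's r of log2 CPM over 13 libraries, among genes whose mean log2 CPM reached 2. Left out of the ranking were genes with only a clone or predicted name, pseudogenes marked -ps, and T cell receptor and immunoglobulin segments. The r values describe libraries that share groups, and carry no test. Klf4 was most like Irgm1 (r = 0.959), Igtp (0.95) and Cd274 (0.942), all known interferon-inducible genes, and without the GFP+ libraries r over the other 10 was 0.921, 0.896 and 0.9. Klf12 was most like Tacc3 (0.975), Mad2l1 (0.968) and E2f7 (0.964), genes of mitosis and the cell cycle, with 0.906, 0.885 and 0.871 over the 10 libraries. Klf11 was most like Dnajb9 (0.959), an endoplasmic reticulum chaperone gene, with 0.973 over the 10 libraries, followed by Zbtb21 (0.902, and 0.856) and Mafk (0.884, and 0.843).

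Without the GFP+ libraries the values for Klf10 fell most. Klf10 was most like Hdac7 (0.975), Fcho1 (0.972) and Slc46a3 (0.972), but over the 10 libraries outside the GFP+ group these fell to 0.361, 0.102 and 0.681. Klf7 was most like Sbf2 (0.994), Siah1a (0.986) and Scmh1 (0.986), with 0.909, 0.849 and 0.784 over the 10, and Klf13 most like Gpr146 (0.991), Rcan3 (0.99) and Slc49a4 (0.988), with 0.827, 0.78 and 0.757. Klf3 was most like Dnase2a (0.97), Ankra2 (0.922) and Ms4a6b (0.91), with 0.969, 0.887 and 0.908 over the 10. Klf2 and Klf6, which varied least, had lower best values, with Csnk1g2 (0.873, and 0.823 over the 10) and Gtf2h3 (0.866, and 0.868) for Klf2. For Klf6 they were Vamp2 (0.826, and 0.835 over the 10), Mrps30 (0.816, and 0.809) and Atxn7l2 (0.81, and 0.792).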

How the data were processed

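RNA was sequenced from sorted spleen CD4+ T helper cells; per the labels' protocols, libraries were made from 11 ng of total RNA after depletion of ribosomal RNA. The values are estimated counts, deposited by the authors in 1 table. The submitters' processing notes name Salmon 1.5.2, STAR 2.7.10a, the GRCm39 build, Trim Galore 0.6.7 and cutadapt 3.4. In each library, 6.25% to 7.33% of the estimated counts were not whole, and all were rounded. Of 47 library columns, 34 matched no label of these samples and were not used.

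Levels are CPM scaled by TMM, where 3 counts equal 0.271 to 0.468 CPM. Tests used edgeR 4.0.16 in R 4.3.3 (TMM, filterByExpr, robust quasi-likelihood, two-sided, Benjamini-Hochberg adjustment at 0.05 over 14059 genes), with all 13 libraries in 1 model of 5 groups and 8 residual degrees of freedom. Each SE is the absolute log2 fold change over the root of the F statistic. The test was checked on simulated counts.

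The members and all gene lists were chosen with earlier results of these data known. Text names the 9 members, Eomes, up to 4 called genes per list with the largest change between GFP+ and GFP− cells, every called list gene elsewhere where at most 5 were called, and the 3 genes most like each member. A gene of the KLF2-linked list and one of those most like Klf2 are not reported here. Other list genes given by name (S1pr1, Itgb7, Cdkn1b, S1pr4, Map3k3, Map2k5, Mapk7, Mef2a, Mef2d, Wwp1, Smurf1, Ctbp1 and Sin3a) were chosen after their values were seen. Groups came from the labels, which do not say that replicates were separate animals, so p-values may reflect technical spread between libraries only. Same-numbered libraries of the 2 GFP fractions share a prefix, read as the animal (10 in all). Their deviations from group means correlated at 0.32, 0.11 and 0.06, and between unlike numbers from −0.25 to 0.15. Replicates differed beyond counting noise (chi-square per degree of freedom 8.01 to 30.9). Alternatives were RLE and upper-quartile normalization, no filter or at least 1 CPM in 2 libraries, DESeq2 1.42.0, limma-voom (limma 3.58.1), the 2 groups alone, replicate blocks, leaving out each library and a fold threshold of 1.5. Promoters are RefSeq's on GRCm38.p6, an older build than that of the files, and gene overlaps are from GENCODE M21. Klf10 has no promoter shown.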

Additional observations from a re-analysis of the deposited data

How the results depend on the processing

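Of 1395 member values recomputed under 22 alternatives per comparison (and 1 more, the animal block, for GFP+ over GFP− cells), 0 called values changed sign, 25 lost their call and 7 gained one. Members called fell to 5 in GFP+ over GFP− cells (8 without the threshold), to 3 in GFP+ over IgG-treated Eomes-GFP cells (5) and to 0 in GFP− over IgG-treated Eomes-GFP cells (2) against a fold threshold of 1.5. The last count ran from 0 to 2 when 1 library was left out. With no filter, 1 member was called in IgG-treated Eomes-TKO over Eomes-GFP cells (Klf11) and 1 in 4-1BB-treated Eomes-TKO over GFP− cells (Klf4), where DESeq2 also called 1. Over the whole table, genes called with no filter were 112 and 220 in these comparisons, against 2 and 6 with the filter. In GFP− over IgG-treated Eomes-GFP cells they were 521 against 107. Leaving out the filter adds genes to the adjustment and also to the fit, so the unadjusted p-values change too. In GFP+ over GFP− cells the edgeR adjusted p of Klf10 was 8.88e-05 with the filter and 8.59e-25 without it. What in the fit made these changes was not tested.

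With the animal prefix as a replicate block, 8 members were called in GFP+ over GFP− cells, as without it. The block by label number gave a call to Klf12 in GFP− over IgG-treated Eomes-GFP cells and changed no other member call.

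Under upper-quartile normalization the share of called genes that were higher was 41.4% in GFP+ over GFP− cells (55.7% under TMM), 60.8% in 4-1BB-treated Eomes-TKO over GFP+ cells (45.6%) and 41.9% in GFP+ over IgG-treated Eomes-GFP cells (54.9%), with medians of all genes moved to −0.116, 0.162 and −0.138, and member calls held. Genes called over the whole table fell to 2146, 2153 and 2214 in these comparisons against the fold threshold. In the sparse comparisons DESeq2 called 63 genes for 4-1BB over IgG in Eomes-TKO (6 by edgeR), 45 for 4-1BB-treated Eomes-TKO over GFP− cells (6) and 288 for GFP− over IgG-treated Eomes-GFP cells (107). Outside the GFP+ group Klf12 held 4 to 39 counts a library, where counting error is large, and its part in the spread was not tested.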
